A study of Arabidopsis thaliana with 12 samples.

Results

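The 146 probes with the brightest signal on every array of a flu and wild type comparison in Arabidopsis thaliana were described, out of 3439 probes measured on each of 12 arrays. For each probe the lowest of its 12 deposited intensities was taken, and the 150 probes where this value was highest were kept. Of these, 4 (PSBW, PSAN, LHB1B2 and AT4G19900) were left out by the rule; PSBY and AT1G74470, also to be left out, were not among the 150. The last probe kept, probe 4415, had a lowest value of 1.40, and the first one not kept, probe 2769, had 1.39. The members were thus chosen by their intensities on the same arrays that are compared below, and their high level is a description. Brightness is not a number of transcripts, since probes differ in length and in how well they hybridise, and the sources used here give neither. They are therefore called the brightest probes and not the most abundant transcripts. Ranks, shares and correlations across probes below are of intensities and not of transcript amounts.

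The arrays came from the flu mutant (6 arrays) and from wild type, WT (6 arrays), both of ecotype Landsberg per the labels. All plants had 12 h of darkness and were harvested 30 min later in the light, so the comparison asks which transcripts differ between the genotypes shortly after return to light. The sources used here do not name the flu allele, the age of the plants or the tissue. None of 16 marker genes for green tissue, root, guard cells, pollen and vasculature had a probe of its own (0 of 16), so the tissue was not checked.

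FLU is a nuclear-encoded chloroplast protein that holds back the early steps of chlorophyll synthesis in the dark. Plants without it build up the precursor protochlorophyllide at night, which produces singlet oxygen when light returns. In green leaves the most abundant nuclear transcripts are known to include those for light harvesting, photosystems and carbon fixation.

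Of the 146 probes, 17 were annotated to 1 gene, 24 to several genes and 105 were not listed in the annotation. Probes with 1 gene were 11.6% of the brightest probes and 20.1% of all probes, and unlisted probes were 71.9% and 54.6%. The functions described below are therefore those of 17 genes. Words in the gene table placed only NdhS among the role lists, so the roles of the other genes are given from background knowledge.

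The deposited values run from 0 to 100. Probe 3499 stood at 100 on all 12 arrays and probe 4141 on all 6 WT arrays, while 2 probes annotated to several genes, 1431 and 1803, reached it on flu arrays 5 and 6. Values at 100 may be capped, so no difference is read for probe 3499. Array sums lay between 3247 and 3350. Arrays 1 and 2, 3 and 4, and 5 and 6 of each genotype resembled each other closely and were averaged as likely repeats of 1 sample.

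The brightest probes, 4.25% of the probes on the array, held between 39.0% and 45.3% of the summed intensity. In flu their share was 42.4% on the lowest array, 43.9% at the median and 45.3% on the highest. In WT it was 39.0%, 41.3% and 41.6%. Every flu array lay above every WT array. The mean share was 43.9% ± 1.38 for flu (SD, n = 3 means of paired arrays) and 40.6% ± 1.31 for WT (SD, n = 3), and the same-numbered pairs differed by 2.38, 3.36 and 3.98 percentage points. Dividing an array by its median or its sum leaves this share as it is. After quantile normalisation, which gives all arrays one distribution, the shares were 41.6% in flu and 42.9% in WT. As that step sets the top values alike on all arrays, it is no check of the difference.

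**Figure D1:**
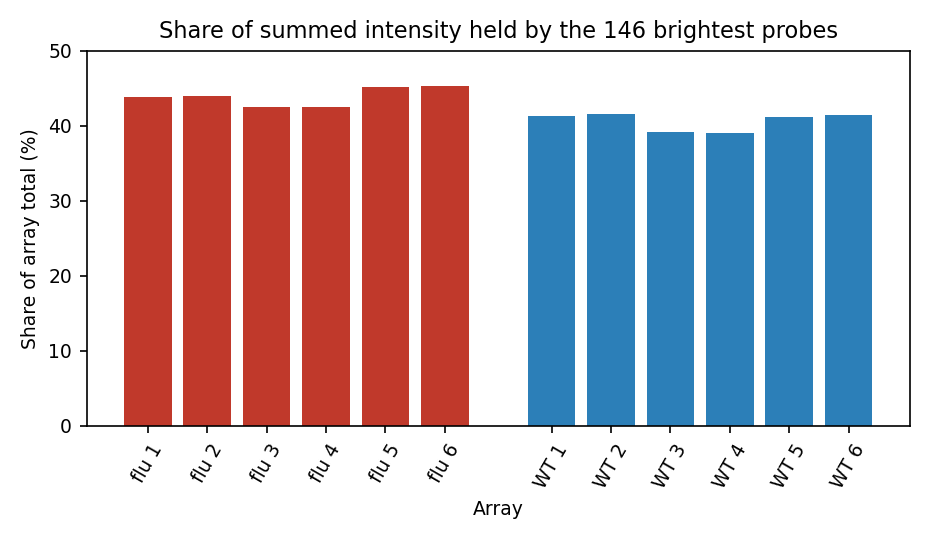
Share of the summed deposited intensity (%, y axis) held by the 146 brightest probes on each array (x axis), with 1 bar per array, flu in red and WT in blue. The flu bars run from 42.4% to 45.3% and the WT bars from 39.0% to 41.6%.

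The gain in flu was concentrated in few probes. The share was higher in flu for 58 of the probes, by 11.4 percentage points in sum, and lower for 88, by 8.12 points in sum. The 5 largest gains added 6.02 points. These were probes 1431 and 1803, the unlisted probes 514 and 2398, and AT3G09850, which went from 1.25% of the total in WT to 2.16% in flu. Probes 1431 and 1803 may be capped on flu arrays 5 and 6. The largest shortfall in flu, 0.911 points, was that of probe 4141, whose WT values are at the top of the scale. The first 20 of the 146 by rank held 24.7% ± 1.03 of the total in flu and 21.8% ± 0.853 in WT, and the other 126 held 19.2% ± 0.680 and 18.8% ± 0.597. The 17 named genes held 5.37% ± 0.049 in flu and 4.60% ± 0.576 in WT. The 24 probes with several genes held 8.19% ± 0.238 and 5.34% ± 1.20. These totals lean on few probes, since AT3G09850 was 0.908 points higher in flu and probes 1431 and 1803 were 1.66 and 1.62 points higher. Most of the named genes, and most of the probes with several genes, had a lower share in flu.

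The set of bright probes was partly shared by the genotypes. When the 150 probes were chosen on the flu arrays alone, 112 were among the 150 chosen on all arrays, and on the WT arrays alone 124 were. The lists from flu alone and from WT alone had 101 probes in common, 67.3% of each. Across the 146 probes the mean levels in flu and WT had a Spearman correlation of 0.70, against 0.73 across all 3439 probes. This is a description across probes on shared arrays.

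Between flu and WT, 65 of the 146 brightest probes passed the test, 20 higher and 45 lower in flu. The test was limma on quantile normalised log2 intensities, using the means of paired arrays, so that n = 3 per genotype, and with Benjamini-Hochberg adjustment over all 3128 tested probes at a threshold of 0.05. Over all tested probes 38.9% passed, 17.5% higher and 21.4% lower. Among the brightest probes the shares were 44.5%, 13.7% and 30.8%. The rule keeps probes whose lowest value is high, which favours small differences, so nothing is read from a comparison of these shares. Of the 65 calls, 51 held with each pair of arrays left out in turn. For 80 of the brightest probes (54.8%) the 3 flu pair means all lay on one side of the 3 WT pair means, against 50.5% of all tested probes.

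The balance of directions depended on the processing. With each array divided by its median, 27 were higher and 38 lower, against 17.3% and 22.0% of all tested probes. With a correction for position in the probe numbering, in which each array's median deviation among other probes of the same place in a repeating block of numbers was subtracted, 45 were higher and 26 lower, and 44 of the 65 calls were made again in the same direction. That block was much longer than the 6 numbers behind the remainders described further below, so its places are not those remainders. Each subtracted median therefore rests on a small part of the tested probes. Over all tested probes 35.2% passed with the correction, 18.3% higher and 16.9% lower, so the balance moved there too. The median log2 difference of the brightest probes was -0.13, and 0.19 with this correction. Over all tested probes it was -0.04 and 0.002. Almost all of the tested probes behind the correction are dimmer than the 146. Across the brightest probes the log2 difference followed the subtracted position value weakly (r = 0.18, slope 0.42, 146 probes sharing the same arrays). Across the brightest 20 it ran the other way (r = -0.29, slope -0.76), while across the other 2982 probes r was 0.48 and the slope 0.81.

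**Figure D2:**
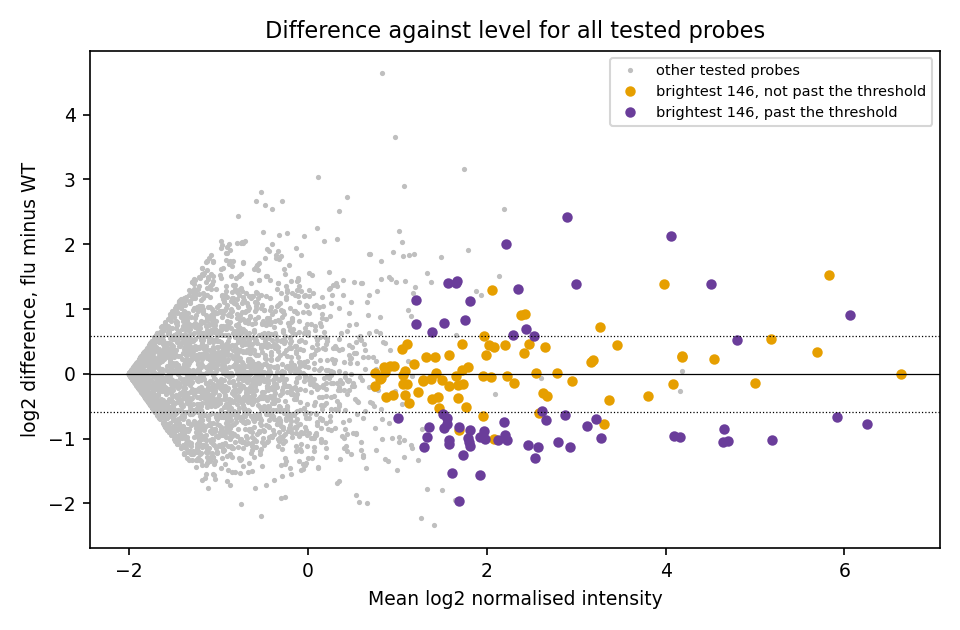
Difference between the genotypes (log2, flu minus WT, y axis) against the mean normalised log2 intensity (x axis) for all 3128 tested probes. Grey points are other probes, orange and purple points the 146 brightest ones without and with a limma adjusted p under 0.05, and dotted lines mark 1.5-fold. Of the brightest probes 20 purple points lie above 0 and 45 below, and the narrowing of the cloud at the left is set by the floor on dim values.

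Stability was read from the interval and not from a missed threshold. A probe was taken as stable where the 95% limma interval of its difference lay wholly within 1.5-fold in either direction, with no adjustment of the interval for the number of probes. This held for 25 of the 146 brightest probes (17.1%), against 19.3% of all tested probes, and 1 of the 25 was probe 3499 at the top of the scale. The share over all tested probes depended on how dim probes were handled. It was 8.56% with the floor at the 10th percentile and 26.4% with no filter on dim probes. Nothing is therefore read from the comparison of these shares. For 56 probes neither held: they did not pass the test, and their interval reached beyond 1.5-fold. No probe of the 146 both passed and lay within that range (0 of 146). The median size of the log2 difference was 0.60, against 0.46 over all tested probes. At least 2-fold apart were 35 of the 146 (24.0%), against 18.1% of all tested probes. Raising dim values to the floor shrinks the differences of dim probes and not those of the brightest, so nothing is read from these comparisons either. Levels also varied within a genotype. The highest of the 3 pair means was over 2-fold above the lowest for 2 of the 146 probes in flu and for 17 in WT. The wider spread in WT was not particular to these probes. Over all tested probes the median SD of the log2 pair means was 0.15 in flu and 0.26 in WT.

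Among the 17 named genes 6 passed, 1 higher and 5 lower in flu, 4 were stable within 1.5-fold and 7 were neither. Of all tested probes with 1 gene 36.9% passed, 17.1% higher and 19.8% lower, and 124 of the 621 were stable, so the count of 6 was near this background. The genes are taken below by what they are known for.

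**Figure D3:**
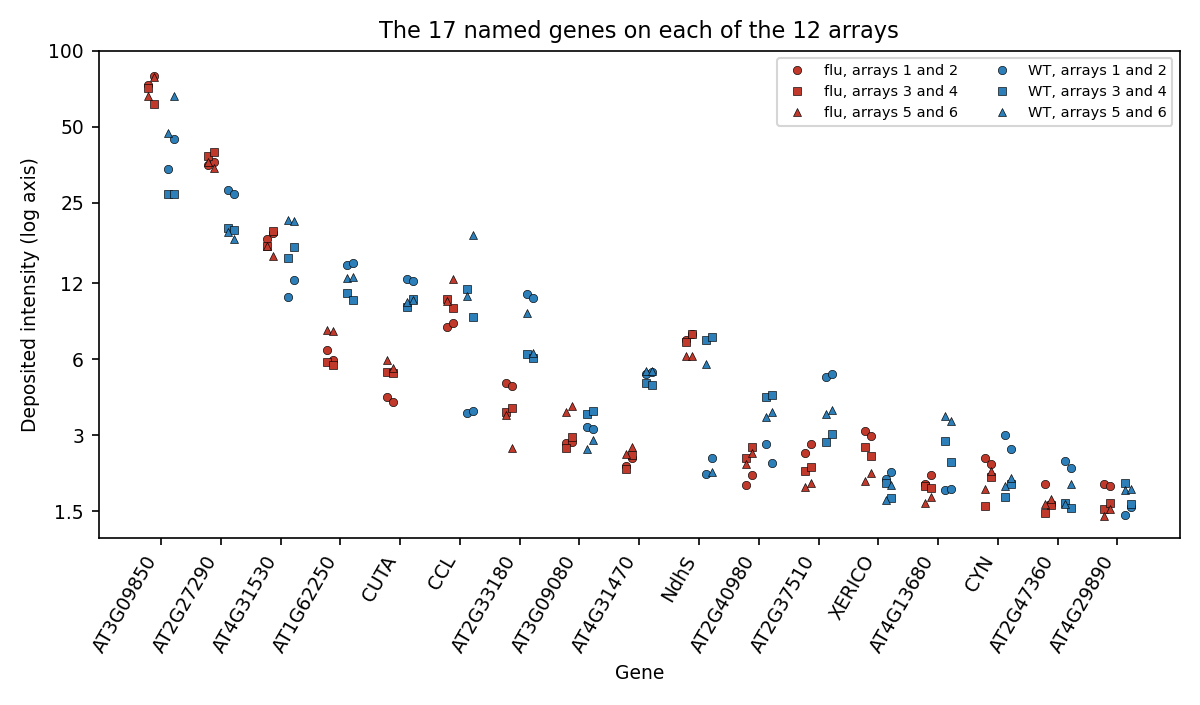
Deposited intensity (y axis, log scale) of the 17 named genes (x axis) on each array, flu in red and WT in blue, with circles, squares and triangles for arrays 1 and 2, 3 and 4, and 5 and 6. The values of AT2G27290, AT1G62250, CUTA, AT2G33180, AT4G31470 and AT2G37510 do not overlap between the genotypes, and CCL and NdhS spread widely in WT.

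Of the genes for chloroplast proteins, CUTA was lower in flu. CUTA is a copper-binding protein of the chloroplast. Its intensity on the flu arrays was 4.08 at the lowest, 5.33 at the median and 5.97 at the highest. On the WT arrays these were 9.70, 10.4 and 12.5. All flu values lay below all WT values. The log2 difference was -1.13 (standard error 0.20, 95% interval -1.62 to -0.65, adjusted p = 0.0065 by limma), so WT stood 2.20-fold above flu. It was -1.21 after the position correction and passed.

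NdhS is the subunit of the chloroplast NADH dehydrogenase-like complex at which ferredoxin docks. It did not pass, at a log2 difference of 0.90 (95% interval -0.14 to 1.95, adjusted p = 0.150 by limma). The flu arrays were even, from 6.21 to 7.53. In WT, arrays 3 and 4 stood at 7.19 and 7.34 and array 5 at 5.77, and arrays 1, 2 and 6 at 2.11, 2.45 and 2.15. WT arrays 3 and 4 thus lay inside the flu range, and without them the difference was 1.38 and passed (0.012). The position correction gave 1.53, which passed (0.037). The list of ATP synthase and electron transfer genes, to which it belongs, had 3 tested genes, 0 higher and 0 lower, with a median log2 difference of 0.17, against -0.04 for all tested probes.

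Of the genes with domains that bind RNA or DNA, AT3G09850 was the brightest named gene, and its call depended on the normalisation. It encodes a protein with a G-patch domain, found in proteins that act on RNA. In flu its intensity was 61.5 at the lowest, 72.0 at the median and 79.1 at the highest. In WT it was 27.1, 39.4 and 66.5. WT array 6, at 66.5, was the only WT value inside the flu range. The log2 difference was 0.34 (95% interval -0.18 to 0.85, adjusted p = 0.257 by limma) and did not pass. Without normalisation it was 0.87 (0.041), with division by the median 0.97 (0.037) and with division by the sum 0.86 (0.039), and each passed. With the probes at 100 left out before normalisation it was 0.66 (0.019). Quantile normalisation gives each of the few probes at the top the mean of its rank across arrays, so for the brightest probes the difference reflects their rank on the array.

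AT2G37510, with an RNA recognition motif of the kind found in RNA-binding proteins, was lower in flu. It stood at 1.88, 2.20 and 2.78 (lowest, median and highest) on the flu arrays and at 2.84, 3.71 and 5.24 on the WT arrays. The values did not overlap, though the lowest WT array was close to the highest flu array. It differed by a log2 of -0.77 (standard error 0.19, adjusted p = 0.021 by limma). The annotation also lists AT2G37510 for probe 439, for which no difference is given here. Division by the median ended the call (0.086), as did leaving out arrays 3 and 4 of flu, arrays 5 and 6 of flu or arrays 5 and 6 of WT (0.073, 0.078 and 0.051).

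The genes for enzymes did not pass the test, and 2 of the 3 were stable. CYN encodes cyanase, which breaks down cyanate. It stood at 1.57, 2.11 and 2.45 in flu and at 1.71, 1.98 and 3.02 in WT. The groups overlapped, and the log2 difference was -0.02 (95% interval -0.45 to 0.41). AT4G29890 encodes an enzyme related to choline monooxygenase. It stood at 1.44, 1.58 and 1.93 in flu and at 1.45, 1.71 and 1.95 in WT, a log2 difference of 0.01 (95% interval -0.32 to 0.34). The groups covered almost the same range. After position correction AT4G29890 stood at 0.54 and passed (adjusted p = 0.047 by limma). AT4G31530, of the family with NAD(P)-binding Rossmann folds, ranged from 15.5 to 19.3 in flu and from 10.6 to 21.3 in WT. The flu range lay within the WT range, and the log2 difference was -0.16 (95% interval -0.70 to 0.38). Another probe, 668, is annotated to several genes with AT4G31530 among them. It was not among the brightest, and it passed at a log2 difference of -0.70.

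Of the genes for signalling, regulated or scaffold proteins, AT4G31470 was lower in flu and the others did not pass. AT4G31470 belongs to the CAP family of secreted cysteine-rich proteins, which includes pathogenesis-related proteins. It stood at 2.22, 2.47 and 2.69 in flu and at 4.74, 5.31 and 5.41 in WT. The groups were far apart and tight. The log2 difference was -1.06 (standard error 0.11, 95% interval -1.32 to -0.80, adjusted p = 0.0013 by limma), the smallest p of the 17 genes, and it was -0.51 with the position correction, where it passed (0.022).

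CCL, a gene under control of the circadian clock whose transcript is known to be short-lived, was the least certain of the 17. Its flu arrays ran from 8.04 to 12.5. WT arrays 1 and 2 stood at 3.67 and 3.75, arrays 3 and 4 at 11.4 and 8.85, and arrays 5 and 6 at 10.7 and 18.6. The WT values thus lay on both sides of the flu range, with 3 of them inside. Its difference was 0.18 on the log2 scale, with a 95% interval from -1.03 to 1.40. Without WT arrays 1 and 2 it was -0.42.

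XERICO encodes a RING-type protein known to raise abscisic acid levels. It stood at 1.99, 2.60 and 3.12 in flu and at 1.66, 1.93 and 2.14 in WT. The flu values were the higher ones, with 2 arrays inside the WT range. The log2 difference of 0.46 did not pass (adjusted p = 0.060 by limma), but did with the pair number as a block (0.039), with the position correction (0.85, 0.0099) and without flu arrays 5 and 6 (0.031). AT2G40980, of the protein kinase family, stood at -0.52 on the log2 scale, short of the threshold (0.152), and passed with the block (0.035) and without WT arrays 1 and 2 (0.040). The position correction gave 0.18. AT3G09080, a WD-repeat protein, ranged from 2.68 to 3.92 in flu and from 2.66 to 3.76 in WT. It was stable, with a log2 difference of -0.03 (95% interval -0.51 to 0.45), but passed at 0.74 with the position correction (0.032).

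Of 5 genes for which no role is given here, AT2G27290 was higher in flu and AT1G62250 and AT2G33180 were lower. AT2G27290 stood at 34.2, 36.2 and 39.6 in flu and at 18.0, 19.7 and 28.1 in WT. No values overlapped, and WT arrays 1 and 2 were the highest of WT. This gave a log2 difference of 0.52 (standard error 0.15, adjusted p = 0.038 by limma), 0.76 without normalisation and 1.497 with the position correction. The call ended when any pair of arrays other than WT arrays 1 and 2 was left out (limma adjusted p of 0.054 to 0.130), with the floor at the 10th percentile (0.061) and with no filter on dim probes (0.052).

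AT1G62250 stood at 5.71, 6.25 and 7.81 in flu and at 10.3, 12.6 and 14.4 in WT. The groups did not overlap. On the log2 scale flu minus WT was -0.99 (standard error 0.17, adjusted p = 0.0054 by limma). The position correction left -0.40, short of the threshold (0.078). AT2G33180 stood at 2.66, 3.78 and 4.83 in flu and at 6.09, 7.77 and 10.9 in WT, again without overlap. On the log2 scale it differed by -1.09 (standard error 0.28, adjusted p = 0.024 by limma). The call ended when arrays 3 and 4 of flu, arrays 5 and 6 of flu or arrays 5 and 6 of WT were left out (0.081, 0.090 and 0.056), and with no filter on dim probes (0.056). AT2G47360 was stable, at a log2 difference of -0.09 (95% interval -0.47 to 0.30). AT4G13680, at -0.45 on the log2 scale, did not pass (0.202), but did without WT arrays 1 and 2 (-0.72, 0.014).

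**Figure D4:**
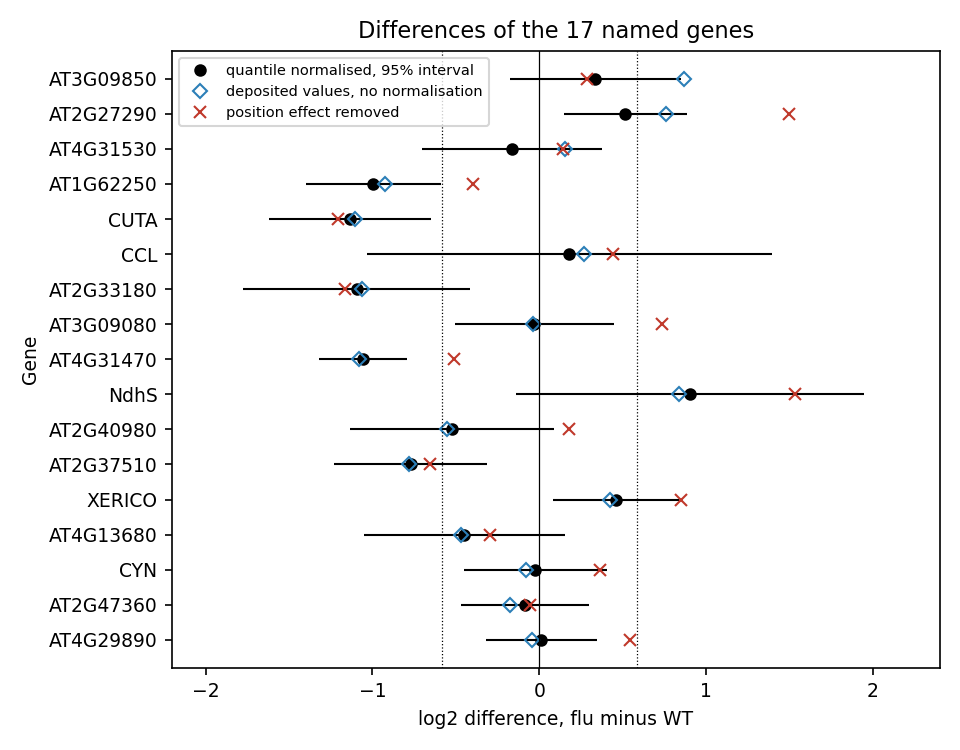
Differences of the 17 named genes (log2, flu minus WT, x axis), with black points and lines for the limma estimate and its 95% interval on quantile normalised values (n = 3 pair means per genotype). Blue diamonds show deposited values without normalisation and red crosses the position correction, and dotted lines mark 1.5-fold. AT3G09850 differs most between black point and diamond, at 0.34 and 0.87, and AT2G27290 most between point and cross, at 0.52 and 1.497.

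Among the first 8 probes by rank, 4 unlisted ones besides probe 3499, and 1 with several genes, were read in the same way. Probe 4141 stood at 100 on all WT arrays and at 62.2, 69.4 and 80.7 in flu. On the deposited scale it was therefore at least 1.42-fold higher in WT (adjusted p = 0.017 by limma on deposited values and 0.0022 on quantile normalised ones). The deposited WT values have no spread at the top of the scale, so the first of these p-values takes no replicate spread from WT. Probe 812 stood at 21.1, 27.7 and 33.2 in flu and at 36.4, 43.4 and 49.3 in WT, a log2 difference of -1.02 (adjusted p = 0.0037 by limma). Both groups were separate for these 2 probes, and so they were for probe 3229, at 18.5, 19.4 and 22.1 in flu and 25.8, 29.1 and 37.2 in WT (-0.86, adjusted p = 0.0047 by limma). Probe 3229 did not pass with division by the median (0.057). Probe 2869 overlapped, at 45.8, 47.9 and 70.4 in flu and 49.0, 54.6 and 97.9 in WT. Its difference of -0.67 passed (0.031), but not in any of the scalings without quantile normalisation (0.537 to 0.767), nor without arrays 1 and 2 or 3 and 4 of flu or arrays 1 and 2 or 5 and 6 of WT (0.095 to 0.104). The call also ended with the position correction (0.390), with probes at 100 left out (0.058) and with no filter on dim probes (0.056). Probe 1431, with several genes, stood at 85.2, 92.5 and 100 in flu and at 30.7, 36.3 and 45.4 in WT. As 2 of its 6 flu arrays may be capped, its log2 difference of 1.33 without normalisation (adjusted p = 0.0015 by limma) is a lower bound on the deposited scale.

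Among those that passed the test, the 5 largest rises and the 5 largest falls were those of unlisted probes. Probe 175 stood at 15.2, 15.9 and 29.1 in flu and at 2.21, 3.66 and 4.09 in WT, a log2 difference of 2.43 (standard error 0.27, adjusted p = 0.0016 by limma). Probe 514 stood at 29.3, 33.6 and 59.1 in flu and at 7.43, 8.50 and 9.15 in WT, a difference of 2.13. In both, every flu array was far above every WT array. Probes 975, 2873 and 3825 had log2 differences of 2.0, 1.43 and 1.41. Probe 3796 fell most, standing at 1.44, 1.59 and 1.86 in flu and at 4.89, 7.13 and 8.20 in WT, a log2 difference of -1.96 (standard error 0.17, adjusted p = 0.00086 by limma). Probes 909, 1186, 2808 and 3491 had log2 differences of -1.56, -1.54, -1.30 and -1.25. None of these 10 probes overlapped between the genotypes on the arrays, as was the case for 72 of the 146 and for 39.9% of all tested probes. The 10 were picked for large differences on the same arrays, so their lack of overlap adds no support. Of the 10, only probe 3491 did not pass with the position correction (adjusted p = 0.062 by limma).

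The narrowest intervals within 1.5-fold, after probe 3499, were those of the unlisted probes 1419, 1132, 1498 and 500. Probe 1419 stood at 4.06, 4.52 and 4.94 in flu and at 4.23, 4.92 and 5.32 in WT, a log2 difference of -0.04 (95% interval -0.29 to 0.22). The others had differences of -0.07, 0.11 and 0.15. All 4 overlapped between the genotypes. With the position correction probe 1132 stood at 0.46 and probe 1498 at 0.94, and both passed.

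The rule did not use the probe numbers, and the brightest probes were unevenly spread over them. Of probes whose number leaves a remainder of 1 when divided by 6, 9.11% (54 of 593) were among the brightest, and 5.16% (32 of 620) with a remainder of 5. With a remainder of 0 it was 0.766% (2 of 261), and for the other classes 2.14% to 3.37%. Of the 17 named genes 5 had a remainder of 1 and 7 a remainder of 5. A brightest probe exactly 6 numbers away was found for 24.8% of the brightest probes with such a neighbour in the table and for 7.01% of all probes. For the next number the shares were 2.94% and 5.48%. The probes within 2 numbers of the named genes, 42 in all, had medians per genotype from 0 to 1.92, and none was among the brightest (0 of 42). The differences between the genotypes also varied with the remainder. The median log2 difference of the brightest probes was -0.26 for remainder 1 and -0.25 for remainder 5. It was 0.08, -0.06 and 0.07 for remainders 2, 3 and 4, and -1.04 for the 2 probes with remainder 0. The sources used here do not say what the numbering stands for, and its part in the levels and in these differences was not tested.

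**Figure D5:**
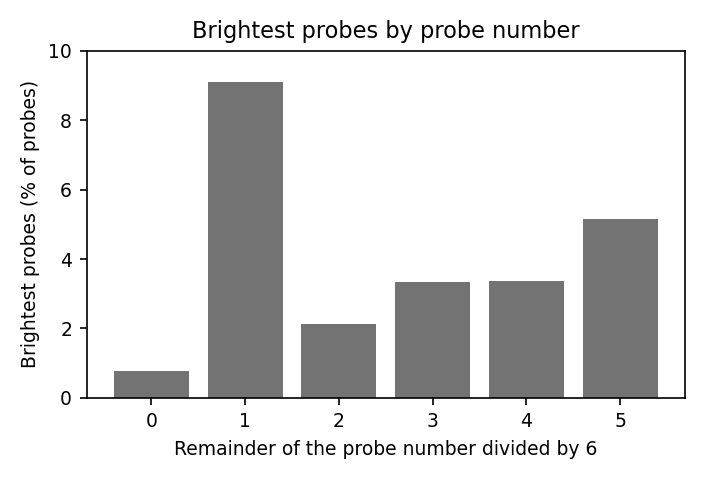
Brightest probes as a percentage of all probes (y axis) by the remainder of the probe number divided by 6 (x axis), with 1 bar per remainder. The bar for remainder 1 stands at 9.11% and that for remainder 0 at 0.766%.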

How the data were processed

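RNA of 6 flu and 6 WT arrays was measured, and the deposited values are intensities on a linear scale, with scanner, background correction and scaling not given in the sources used here. Precision is limited by the number of arrays. The members, lists and tests were chosen with earlier results of these data known. Arrays were quantile normalised, values under the 25th percentile (0.250) were raised to it, log2 was taken, and 311 probes at that floor on all arrays were left out of the tests. Arrays 1 and 2, 3 and 4, and 5 and 6 of a group resembled each other most (correlations of deviations 0.21 to 0.68, other arrays -0.55 to -0.04) and were averaged. Same-numbered pair means of flu and WT deviated together (0.26 to 0.46), so they may belong together, though no label says so. The main fit did not use such a pairing, and a fit with the pair number as a block is given below. Nothing says that arrays came from separate plants. The p-values of the main fit measure the spread between the 3 pair means per genotype, and not that between the arrays of a pair. The fit used limma 3.58.1 in R 4.3.3 (lmFit, eBayes, two-sided), with group only. It was also run on simulated data with independent noise. Those data had no floor, position effect or shared deviations of same-numbered pairs, so they do not show how the fit behaves with these. Probes were named through the platform annotation, which can be old, updated through a TAIR10.1 gene table (690 of 692 probes with 1 gene matched). Every member with 1 gene was named. Values were also given for the first 8 by rank, the 5 largest differences past the threshold each way and the 5 narrowest intervals within 1.5-fold. Alternatives were other scalings, floor, filter, separate arrays, blocks, position, probes at 100 left out, other choices of members and left-out pairs. Protein and promoter sequences were not used here.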

Additional observations from a re-analysis of the deposited data

How the results depend on the processing

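The count of brightest probes that passed (65) stayed within 1.5 times under every alternative but the 12 arrays with array number as block. There 104 passed, 41 of them higher in flu, and 49 were stable, while 60.5% of all tested probes passed and 33.8% were stable. With the 12 arrays as separate replicates 35 were higher and 42 stable, while 55.4% of all tested probes passed and 29.4% were stable. With the pair number as a replicate block 74 passed, 23 higher and 51 lower (43.8% of all tested probes), and of the named genes XERICO and AT2G40980 newly passed while no named gene lost its call. Leaving out each pair of arrays gave 54 to 71 that passed, and 26.9% to 41.5% of all tested probes. With the position correction 45 were higher and 26 lower. The number of stable probes, 25, was 15 without flu arrays 3 and 4. The share of stable ones among all tested probes fell there too, from 19.3% to 13.3%. The median log2 difference was -0.034 with division by the median, 0.19 with the position correction and between -0.19 and -0.09 with pairs left out.

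The share of summed intensity was 41.6% in flu and 42.9% in WT after quantile normalisation. It was 37.0% and 35.1% without probes at 100, 40.1% and 36.2% with 100 probes, and 46.9% and 44.3% with 200. Chosen by the median it was 45.8% and 41.1%, by the lowest value in flu 46.6% and 38.7%, and by the lowest value in WT 42.7% and 41.7%. A choice on one genotype's arrays favours that genotype. Of the 150 probes, 136 to 143 stayed when a pair number was left out, 122 when chosen by the median and 148 on quantile normalised values.

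Small differences changed sign. Without normalisation, with division by the median and by the sum, AT4G31530 stood at 0.16, 0.26 and 0.14. With division by the median AT3G09080, CYN and probe 1419 stood at 0.064, 0.023 and 0.018. AT4G29890 stood at -0.042 without normalisation and -0.054 with division by the sum. With the position correction AT4G31530, AT3G09080, AT2G40980 and CYN stood at 0.14, 0.74, 0.18 and 0.37, and probes 1419, 1132 and 500 at 0.40, 0.46 and -0.17. With pairs left out the lowest and highest were -0.39 and 0.029 for AT4G31530, -0.42 and 0.55 for CCL, -0.19 and 0.11 for AT3G09080 (0.059 and 0.042 without flu arrays 1 and 2 or 3 and 4), -0.12 and 0.14 for CYN (0.052 without flu arrays 3 and 4), -0.20 and 0.061 for AT2G47360, and -0.085 and 0.070 for AT4G29890 (-0.061 without flu arrays 1 and 2). The cause was not tested. Capped signal limits what can be read at the top of the scale.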

Other observations

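Arrays taken as repeats of 1 sample were close for most of the brightest probes, with a median fold between them of 1.05 to 1.06 in each of the 6 pairs. The exceptions lay in WT. Between WT arrays 5 and 6 the named gene NdhS differed 2.68-fold, the largest difference of any brightest probe in that pair, and 3 probes differed by over 1.5-fold. Between WT arrays 1 and 2 there were 4 such probes, led by the unlisted probe 2881 at 2.095-fold. In the 3 flu pairs and in WT arrays 3 and 4 there were 0.

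Pair means within WT spread more than within flu, and this was so over all tested probes too. There the median SD of the log2 pair means was 0.26 in WT and 0.15 in flu, against 0.22 and 0.17 for the brightest probes. The median of the highest over the lowest pair mean was 1.38 in WT and 1.25 in flu. The widest in WT was probe 1803, annotated to several genes, at 5.58-fold, and among the named genes it was CCL at 3.95-fold. In flu the widest named gene was AT2G33180 at 1.52-fold.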
